A study of Mus musculus with 16 samples.

Results

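Levels of 9 genes that carry the recognition step of photoreceptor outer segment phagocytosis were described in the retinal pigment epithelium (RPE) of mice, out of 51912 genes counted. The genes were chosen by name: the TAM receptors Mertk, Axl and Tyro3, their ligands Gas6 and Pros1, the integrin subunits Itgav and Itgb5, the bridging protein Mfge8 and the scavenger receptor Cd36. All 9 were above the level needed for testing. The rule that lists them uses no measured value, but the genes were chosen with earlier results of these data known. RNA was sequenced from RPE lifted off the choroid of male C57BL/6 mice aged 40 weeks. The animals were wild type or lacked Sucnr1, which encodes the succinate receptor SUCNR1, and were either untreated or exposed to hydroquinone, an oxidant found in cigarette smoke. There were 4 libraries in each of 4 groups: wild type untreated (2 mice by the titles), wild type with hydroquinone (4 mice), knockout untreated (3 mice) and knockout with hydroquinone (4 mice). Each library was 1 eye. The labels used here do not give the hydroquinone dose, route or duration, or the cells in which Sucnr1 was deleted, and the protocol counts 4 animals in every group where the titles name 13 mice in all.

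RPE cells engulf the shed tips of photoreceptor outer segments every day. The integrin αvβ5 (Itgav with Itgb5) binds the tips through Mfge8, which attaches to exposed phosphatidylserine, and Mertk, a receptor tyrosine kinase, then drives engulfment once Gas6 or protein S (Pros1) bridges it to the same lipid. Loss of Mertk causes photoreceptor degeneration in rodents and humans. Axl and Tyro3 are the related TAM receptors, and Cd36 binds oxidized lipids and has been tied to the uptake of outer segments.

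Promoter sequences are shown for the pair of members whose levels moved most closely together, Mertk and Itgav, and for the pair with the smallest p-values for treatment and genotype, Mfge8 and Pros1. Each runs from 250 bases before to 50 bases after the gene's start in RefSeq, is written 5′ to 3′ along the gene's strand, and has the GC box GGGCGG or its reverse complement in capitals. The windows are chr2:128698665-128698964 (plus strand), chr2:83724147-83724446 (plus strand), chr7:79149011-79149310 (minus strand) and chr16:62854057-62854356 (plus strand) in build GRCm38.p6.
Mertk: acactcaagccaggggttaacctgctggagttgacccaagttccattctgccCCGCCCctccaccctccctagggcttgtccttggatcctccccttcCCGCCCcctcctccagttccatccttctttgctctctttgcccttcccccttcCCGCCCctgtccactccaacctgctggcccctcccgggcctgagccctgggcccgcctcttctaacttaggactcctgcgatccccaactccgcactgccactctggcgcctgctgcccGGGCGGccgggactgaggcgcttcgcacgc
Itgav: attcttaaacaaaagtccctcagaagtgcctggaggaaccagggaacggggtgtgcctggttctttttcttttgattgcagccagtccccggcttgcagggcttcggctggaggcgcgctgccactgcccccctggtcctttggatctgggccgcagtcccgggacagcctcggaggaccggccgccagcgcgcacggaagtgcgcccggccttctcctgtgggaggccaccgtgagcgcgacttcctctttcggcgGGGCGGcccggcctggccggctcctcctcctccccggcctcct
Mfge8: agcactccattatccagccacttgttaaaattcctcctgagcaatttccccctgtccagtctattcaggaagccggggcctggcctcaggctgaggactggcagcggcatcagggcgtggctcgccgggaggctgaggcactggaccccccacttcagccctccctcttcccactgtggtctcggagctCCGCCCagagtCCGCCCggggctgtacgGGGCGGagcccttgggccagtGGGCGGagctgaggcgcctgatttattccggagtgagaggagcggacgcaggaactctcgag
Pros1: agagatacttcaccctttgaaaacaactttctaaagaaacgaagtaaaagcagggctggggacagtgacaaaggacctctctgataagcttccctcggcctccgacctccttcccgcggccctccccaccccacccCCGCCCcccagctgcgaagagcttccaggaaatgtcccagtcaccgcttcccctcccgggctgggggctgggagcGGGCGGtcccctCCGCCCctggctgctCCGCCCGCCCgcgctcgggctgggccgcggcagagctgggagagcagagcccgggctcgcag
The Mertk window held 4 GC box matches and that of Itgav held 1, 7 bases after its start. On either strand and with overlapping matches allowed, the GC box occurred in the windows of 9 of 9 members and in 35.7% of 32851 promoters. The E-box CACGTG, the M-box core CATGTG, the OTX2 core TAATCC, the antioxidant response element core TGACNNNGC and the TATA box TATAAA were in 0 of the 9 windows and in 7.15%, 14.2%, 7.06%, 12.4% and 13.6% of all promoters. The Cd36 window had a GC content of 43.0%, and those of the other members lay between 58.3% (Gas6) and 73.3% (Tyro3). The median over all promoters was 52.7%. CpG counts were 3 (Cd36), 6 (Axl) and 14 to 31 in the other members, against a median of 7. The GC box holds only G and C, and the promoters it was set against were not matched for GC content.

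Total counts per library were 21113549 to 35332444. Sucnr1 itself had 29 counts over the 8 wild-type libraries, with 4 of them at 0, and 4 counts over the 8 knockout libraries, with 6 at 0, so its level is too low here to check single libraries against their labels. RPE markers such as Rpe65 and Rlbp1 were detected in every library, and the 12 of them summed to 23559 to 37050 CPM (counts per library of 1e+06, with totals scaled by the TMM method). Markers of other cells were present too: the 12 rod markers summed to 252 to 23600 CPM, the 12 macrophage markers to 369 to 847 CPM and the 4 corneal epithelial markers to 1984 to 24118 CPM, and no list had a marker at 0 in every library. The summed level of the 4 oligodendrocyte markers was lower with hydroquinone by its medians, with a median of 2411 CPM in untreated wild type (103 to 5767) and 129.8 CPM with hydroquinone (83.3 to 1185), and of 1551 CPM (287 to 3076) and 424 CPM (86.5 to 3245) in the knockout, and the groups overlapped. The 4 melanocyte markers had medians of 1734 and 472 CPM in wild type and 1483 and 728 CPM in the knockout. Those of the 4 corneal epithelial markers were 6235 and 12308 CPM in wild type and 5444 and 4801 CPM in the knockout, in the same order. Their part in the treatment differences below was not tested. The rod score was highest in knockout untreated replicate 4 and knockout hydroquinone replicate 1, while wild-type untreated replicate 3 and knockout untreated replicate 1 had the fewest detected genes, 18282 and 17904. In bulk RNA, fewer cells of a type and less RNA per cell cannot be told apart. Library identifiers in the labels carry a letter in 7 libraries and none in 9, 2 of each form per group except in wild type with hydroquinone, which had 1 with and 3 without.

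All 3 TAM receptors were expressed in every library, and none passed the adjusted threshold in any comparison of groups. Mertk (ENSMUSG00000014361, chr2:128698956-128802894, plus strand) measured 100.04, 123, 148 and 90.8 CPM in the 4 untreated wild-type libraries and 119.8, 71.7, 159 and 142 CPM with hydroquinone. In the knockout it measured 131, 133, 121 and 84.0 CPM untreated and 102, 113, 134 and 149 CPM with hydroquinone. The 4 groups overlapped, and the lowest and the highest library were both wild type with hydroquinone. The group means lay between 115 ± 25.4 and 124 ± 21.3 CPM (SD, n = 4 libraries), and the treatment difference averaged over genotype was 0.09 ± 0.16 on the log2 scale (estimate ± SE, edgeR), with an interval of 2 SE on each side from -0.23 to 0.42.

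Axl (ENSMUSG00000002602, chr7:25757273-25788705, minus strand), the TAM receptor linked most to inflammation and binding mainly Gas6, measured 145, 159, 162 and 132 CPM in untreated wild type and 131, 141, 139 and 164 CPM in wild type with hydroquinone. It measured 163, 158, 97.3 and 105 CPM in untreated knockout and 130.1, 153, 169 and 183 CPM in knockout with hydroquinone. The 2 lowest of all 16 libraries were untreated knockout replicates 3 and 4, and the groups overlapped. The log2 difference with hydroquinone was -0.06 ± 0.16 in wild type and 0.28 ± 0.16 in the knockout (edgeR), and neither passed. In the knockout this difference was 0.80 in libraries with a lettered identifier and -0.21 in unlettered ones, so its sign differed by identifier form.

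Tyro3 (ENSMUSG00000027298, chr2:119797733-119818104, plus strand), which binds both Gas6 and protein S, measured 89.4, 70.3, 73.8 and 82.8 CPM in untreated wild type and 113, 85.2, 88.1 and 106 CPM with hydroquinone. The knockout libraries measured 98.1, 69.9, 95.7 and 62.0 CPM untreated and 87.4, 90.2, 82.5 and 97.1 CPM with hydroquinone. The highest library was wild type with hydroquinone and the lowest was untreated knockout replicate 4, with overlap between all groups. Tyro3 was 0.31 higher on the log2 scale with hydroquinone in wild type and 0.13 higher in the knockout, and over both genotypes the difference was 0.22 ± 0.10 (edgeR adjusted p = 0.869, unadjusted 0.0509).

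Gas6 was the more abundant TAM ligand, and its 3 highest libraries were all knockout with hydroquinone. Gas6 (ENSMUSG00000031451, chr8:13465374-13494490, minus strand), a vitamin K dependent protein that activates all 3 TAM receptors, measured 336, 371, 436 and 409 CPM in untreated wild type and 369, 452, 399.8 and 413 CPM in wild type with hydroquinone. It measured 374, 331, 409 and 399 CPM in untreated knockout and 377, 516, 609 and 539 CPM in knockout with hydroquinone. In the last group replicate 1 lay within the range of the other groups, so the groups overlapped. The mean was 510.0 ± 97.3 CPM in knockout with hydroquinone against 378 ± 34.4 CPM untreated (SD, n = 4 libraries each), a log2 difference of 0.43 ± 0.14, or 1.35-fold (edgeR adjusted p = 1, unadjusted 0.0072). In wild type it was 0.07 ± 0.14, and the interaction of treatment and genotype was 0.36 ± 0.20 (edgeR adjusted p = 1, unadjusted 0.0871). Knockout hydroquinone replicate 1 was also 1 of the 2 libraries richest in rod RNA, and without both of these the knockout difference was 0.57. It was 0.31 when the libraries lacking the letter were taken alone and 0.51 for the lettered ones.

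Pros1 showed the largest genotype difference of the 9 members under hydroquinone and averaged over treatment; untreated, Cd36 (-0.24) and Axl (-0.20) differed more on the log2 scale than Pros1 (0.08). Pros1 (ENSMUSG00000022912, chr16:62854307-62929346, plus strand), which encodes protein S, an anticoagulant cofactor that also activates Mertk and Tyro3, measured 51.2, 51.2, 56.4 and 46.3 CPM in untreated wild type. With hydroquinone the wild-type libraries measured 31.3, 34.4, 45.3 and 44.3 CPM, all below the untreated ones. Replicates 1 and 2 of that group, the lowest in Pros1, had the highest corneal epithelial scores of all libraries (mean log2(CPM + 1) 11.65 and 11.70). Replicates 3 and 4 had 8.74 and 9.80. Over 13 mice Pearson's r of Pros1 with this score was -0.49, and 0.19 without the 2 outermost mice. The part of corneal RNA in the Pros1 differences was not tested. The knockout libraries measured 48.5, 75.5, 48.5 and 43.7 CPM untreated and 59.2, 57.7, 47.2 and 70.4 CPM with hydroquinone, and the latter were all above the wild-type libraries given the same treatment. The knockout-to-wild-type difference under hydroquinone was 0.60 ± 0.18 on the log2 scale, 1.51-fold (edgeR adjusted p = 1, unadjusted 0.00422), and untreated it was 0.08 ± 0.18. The difference with hydroquinone was -0.40 ± 0.18 in wild type (edgeR adjusted p = 0.994, unadjusted 0.0376) and 0.12 ± 0.18 in the knockout. The 4 untreated wild-type libraries are both eyes of 2 mice, and with the eyes of a mouse summed the wild-type difference was -0.39 ± 0.23 (edgeR adjusted p = 1, unadjusted 0.113). The interaction was 0.52 ± 0.25 (edgeR adjusted p = 1, unadjusted 0.0547), so a difference between the genotypes in response did not pass. The wild-type difference was -0.53 in unlettered libraries and -0.14 in lettered ones, and without the 2 libraries with fewest genes it was -0.36.

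The integrin pair differed in how variable it was: Itgav ranged 2.17-fold over the 16 libraries and Itgb5 1.51-fold. Itgav (ENSMUSG00000027087, chr2:83724397-83806916, plus strand), the αv subunit, measured 392, 543, 602 and 407 CPM in untreated wild type and 482, 355, 772 and 588 CPM in wild type with hydroquinone. It measured 454, 614, 564 and 428 CPM in untreated knockout and 407, 489, 579 and 672 CPM in knockout with hydroquinone. As for Mertk, the lowest and the highest library were replicates 2 and 3 of wild type with hydroquinone, and all groups overlapped. Its log2 difference with hydroquinone over both genotypes was 0.12 ± 0.16 (edgeR).

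Itgb5 (ENSMUSG00000022817, chr16:33829665-33949338, plus strand), the β5 subunit that pairs with αv at the apical RPE surface, measured 221, 192, 183 and 180.2 CPM in untreated wild type and 196, 219, 189.6 and 213 CPM with hydroquinone. The knockout libraries measured 236, 204, 209 and 162 CPM untreated and 188, 205, 246 and 234 CPM with hydroquinone. Its coefficient of variation over the 16 libraries, 11.1%, was the lowest of the 9 members. The interval of its treatment difference over both genotypes, 2 SE on each side, ran from 0.944 to 1.20-fold (edgeR), the narrowest of the 9.

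Mfge8 had the smallest unadjusted p-value of the members for treatment over both genotypes. Mfge8 (ENSMUSG00000030605, chr7:79133768-79149060, minus strand), the secreted protein that joins phosphatidylserine to αvβ5, measured 197, 190.4, 118 and 155 CPM in untreated wild type and 178, 217, 184 and 235 CPM in wild type with hydroquinone. It measured 165, 182, 121 and 173 CPM in untreated knockout and 218, 224, 260.5 and 218 CPM in knockout with hydroquinone. In the knockout every hydroquinone library was above every untreated one, and in wild type the groups overlapped. The knockout difference was 0.52 ± 0.17 on the log2 scale, 1.44-fold (edgeR adjusted p = 1, unadjusted 0.00652), and the wild-type difference 0.30 ± 0.16. Over both genotypes it was 0.41 ± 0.12, 1.33-fold, with an interval of 2 SE from 1.13 to 1.56-fold (edgeR adjusted p = 0.684, unadjusted 0.00311).

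The averaged Mfge8 difference was 0.31 in unlettered and 0.58 in lettered libraries. It was 0.46 without the 2 rod-rich libraries and 0.34 without the 2 with fewest genes. Macrophages also make Mfge8, and the macrophage markers summed to 369 to 685 CPM in untreated knockout and 555 to 718 CPM in knockout with hydroquinone; with their score as a covariate the Mfge8 difference over both genotypes was 0.34. These covariate and left-out settings were chosen after the data were seen, except the identifier form.

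Cd36 was the most variable member, with a coefficient of variation of 31.7% over the 16 libraries. Cd36 (ENSMUSG00000002944, chr5:17781690-17888801, minus strand) measured 59.8, 104, 71.2 and 41.0 CPM in untreated wild type and 54.1, 52.4, 80.9 and 103 CPM in wild type with hydroquinone. It measured 70.9, 91.5, 30.8 and 39.8 CPM in untreated knockout and 86.5, 67.5, 79.2 and 68.5 CPM in knockout with hydroquinone. All groups overlapped, and the lowest 2 libraries were untreated knockout replicates 3 and 4, as for Axl. The log2 difference with hydroquinone in the knockout was 0.37 ± 0.34 (edgeR adjusted p = 1, unadjusted 0.284). It was 0.12 with the macrophage score as a covariate, 0.15 without the rod-rich libraries, -0.11 in unlettered libraries and 1.07 in lettered ones.

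**Figure D1:**
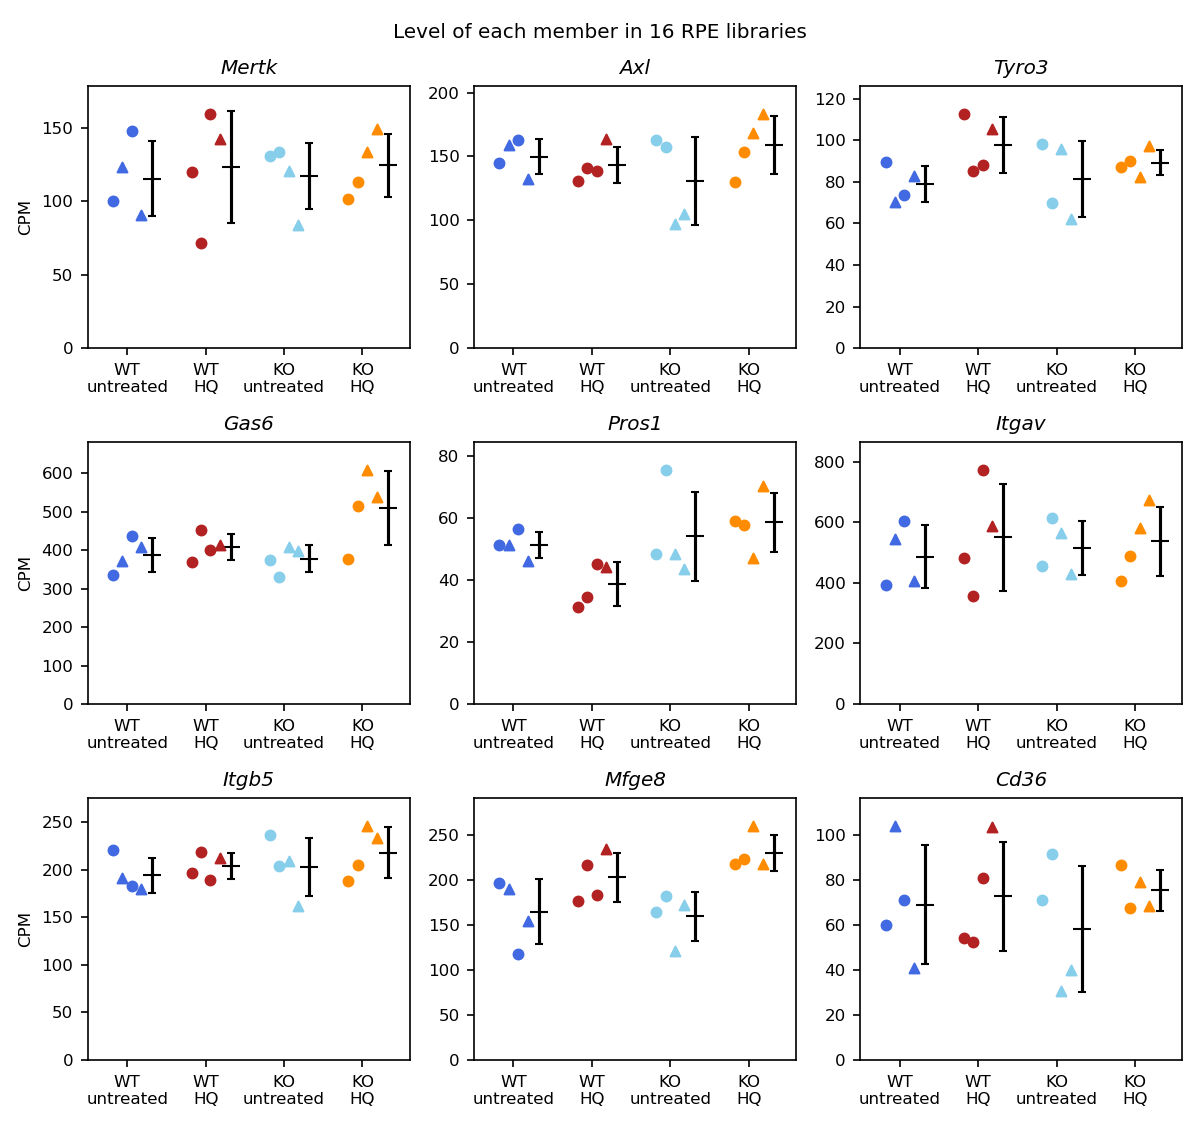
CPM of each of the 9 genes (vertical axis, from 0) in the 4 groups, with 1 point per library (circles: identifier without a letter, triangles: with a letter) and the mean ± SD of 4 libraries beside them. HQ is hydroquinone. The groups overlap for most genes; the Pros1 libraries of wild type with hydroquinone lie below the other wild-type libraries, and the Mfge8 libraries of knockout with hydroquinone lie above the untreated knockout ones.

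Over the 9 genes, 0 passed an edgeR adjusted p of 0.05 in any of the 7 contrasts, and DESeq2 and limma with the mouse as a block gave 0 as well. For hydroquinone in wild type 0.0065% of the 15380 genes tested passed, in the knockout 0.0455%, and averaged over genotype 0.0845%. For the knockout untreated 0% passed, under hydroquinone 0%, averaged over treatment 0%, and for the interaction 0%. Over all genes, edgeR passed 1, 7 and 13 genes in the 3 hydroquinone contrasts, and DESeq2 passed 20, 14 and 39. For the knockout under hydroquinone DESeq2 passed 3 genes, and it passed 0 for the knockout untreated, the knockout averaged over treatment and the interaction.

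At an unadjusted edgeR p below 0.05, 1 of 9 members was counted for hydroquinone in wild type (Pros1, lower), against 4.28% of all genes tested, and 2 of 9 in the knockout (Gas6 and Mfge8, higher), against 2.96%. Averaged over genotype 2 were counted (Gas6 and Mfge8, higher), against 5.72%. For the knockout 0 were counted untreated, against 1.32%, 2 under hydroquinone (Pros1 and Gas6, higher), against 4.18%, and 1 averaged over treatment (Pros1, higher), against 2.96%. The interaction gave 0 members, against 1.92%. Pros1, Gas6 and Mfge8 made up every one of these counts.

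Groups that did not overlap at all were found for 1 member with hydroquinone in wild type (Pros1), against 2.91% of all genes, and 1 in the knockout (Mfge8), against 1.91%. Between genotypes there were 0 members untreated, against 1.05%, and 1 under hydroquinone (Pros1), against 2.33%. With 9 members, 1 gene is the smallest count above 0, and the contrasts share libraries.

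With hydroquinone 7 of 9 members had a higher estimate in wild type (median log2 difference 0.08, against 0.00 over all genes, of which 49.96% were higher) and 9 of 9 in the knockout (median 0.13, against 0.00, with 49.6% of all genes higher). In the knockout this count was 9 of 9 in lettered libraries and 3 of 9 in unlettered ones, and in wild type it was 8 and 5 of 9. For genotype 5 of 9 were higher in the knockout untreated, against 53.2% of all genes, and 7 of 9 under hydroquinone, against 53.1%. The contrasts share groups, and members share libraries, so these counts are descriptions.

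**Figure D2:**
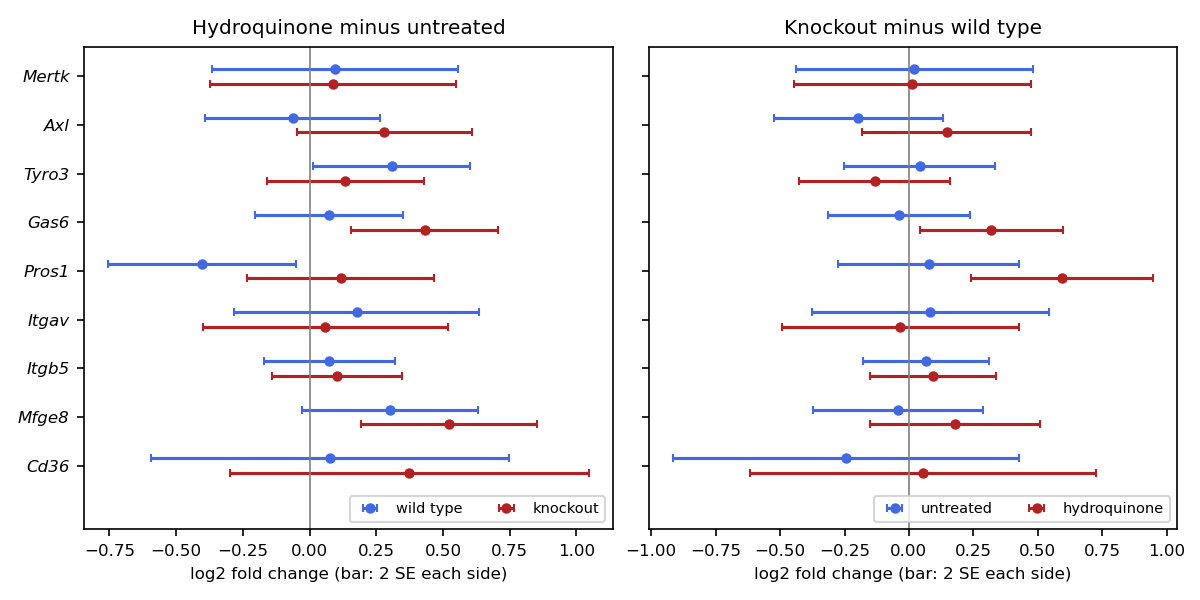
Log2 fold change of each gene (horizontal axis) for hydroquinone against untreated in wild type and knockout (left) and for knockout against wild type in untreated and hydroquinone mice (right), as edgeR estimates with 2 SE on each side. The intervals of Pros1 and, narrowly, Tyro3 in wild type, and of Gas6 and Mfge8 in the knockout, lie off 0 on the left; those of Pros1 and Gas6 under hydroquinone lie off 0 on the right, and 0 genes passed after adjustment over all genes.

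With the eyes of a mouse averaged, so that 13 mice were the units, 18 exact permutation tests were made, 2-sided, of 9 members for treatment (8 against 5 mice) and genotype (7 against 6). Mfge8 was 0.40 higher on the log2 scale with hydroquinone (exact p = 0.00699, where the smallest possible is 0.00078). Tyro3 was 0.28 higher (exact p = 0.0256) and Gas6 0.26 higher (exact p = 0.0723). Pros1 was 0.41 higher in the knockout (exact p = 0.0303, where the smallest possible is 0.00058). Mice were pooled over the other factor, which was not balanced: 4 of 6 wild-type and 4 of 7 knockout mice had hydroquinone. With both treatments weighted equally, the edgeR genotype difference of Pros1 was 0.34. The p-values are not adjusted for the 18 tests, although such an adjustment was planned.

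Scaled to exon length, Gas6 was the most abundant member and Pros1 the least. Gas6 measured 165 ± 29.6 CPM per kb of exon (SD, n = 16 libraries), above Itgb5 at 57.7 ± 6.37 in every library and with no overlap of their ranges. Itgav followed at 48.6 ± 10.7, Mfge8 at 40.4 ± 8.32, Axl at 28.9 ± 4.57 and Mertk at 27.7 ± 5.78. Cd36 measured 19.2 ± 6.08, Tyro3 14.0 ± 2.18 and Pros1 12.4 ± 2.80 CPM per kb. From Itgb5 down, every pair of neighbours in this order overlapped in range.

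Within families, Axl and Mertk made up 41.0% and 38.9% of the length-scaled TAM receptor level and Tyro3 20.1% (means over 16 libraries), and Gas6 made up 92.9% of the level of the TAM ligands. Among the β subunits measured here, Itgb5 made up 17.6%, Itgb1 20.4%, Itgb3 0.569% and Itgb8 61.4%. Itgb8, the partner of αv in latent TGFβ activation, was above Itgb5 in 16 of 16 libraries with no overlap, at 211 ± 56.3 CPM per kb.

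**Figure D3:**
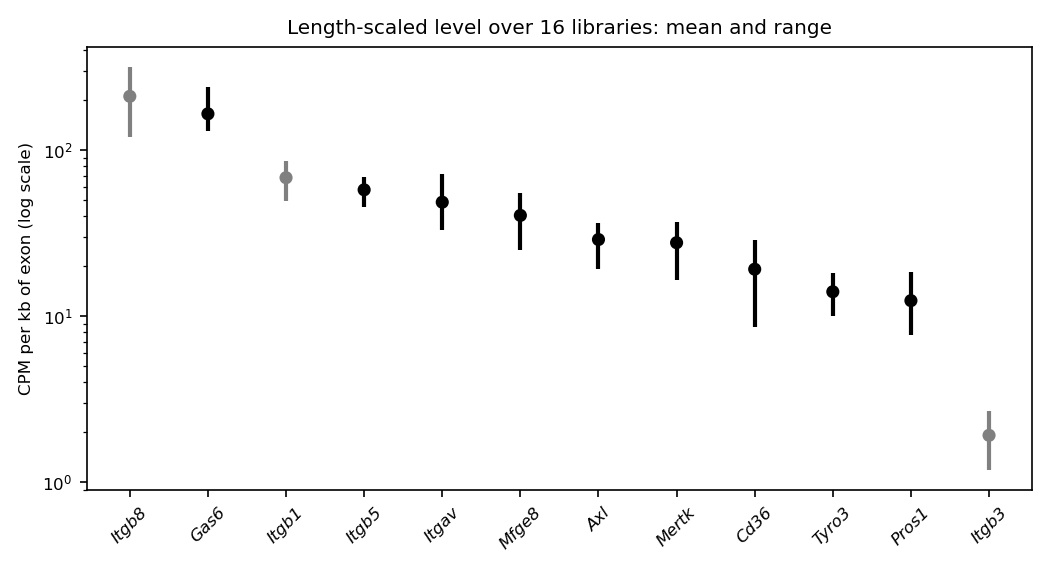
CPM per kb of exon (vertical axis, log scale) of the 9 genes (dark) and of 3 other integrin β subunits (grey), as mean (point) and range (line) over 16 libraries. Gas6 stands above the other 8 genes, and Itgb8 above Itgb5.

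Mertk and Itgav were the most tightly linked pair of members. Their ratio, Itgav to Mertk in counts, stayed between 3.48 and 5.09 over the 16 libraries, while Mertk alone ranged 2.22-fold. Over 13 mice Pearson's r was 0.93 and Spearman's rho 0.96 (permutation p adjusted over 36 pairs 0.00072 and 0.00036), and r was 0.97 without the 2 mice farthest from the median. Among identifiers without a letter r was 0.89, and with a letter 0.97. The other 35 pairs did not pass this adjustment; Axl and Itgb5 came next with r = 0.72, which was 0.40 without the 2 outermost mice.

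Both genes followed the RPE marker score, the mean log2(CPM + 1) of 12 RPE genes that include neither of them. Over 13 mice r was 0.89 for Mertk and 0.90 for Itgav, with rho 0.93 for each (permutation p adjusted over 117 relations 0.0029 for r and 0.0018 for rho). Without the 2 outermost mice r was 0.89 and 0.84. With the RPE score as a covariate, added after the data were seen, the log2 difference with hydroquinone in wild type was 0.04 for Mertk and 0.12 for Itgav.

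Of the 117 relations, 8 passed for r. Cd36 followed the macrophage score (r = 0.85, rho = 0.77, permutation p for r adjusted over the relations 0.0031), with r = 0.72 without the 2 outermost mice, 0.94 among identifiers with a letter and 0.38 among those without. Axl was lower where the rod score was higher (r = -0.81, rho = -0.79, adjusted permutation p for r 0.017) and where markers of other retinal neurons and glia were higher (r = -0.83, adjusted permutation p 0.015). It was higher with the pericyte score (r = 0.78, adjusted permutation p 0.037), where r was 0.53 without the 2 outermost mice. Itgb5 was lower with the rod score (r = -0.76, adjusted permutation p 0.037) and with the other retinal markers (r = -0.80, adjusted permutation p 0.018), and among identifiers without a letter these were -0.42 and -0.48. For rho, the Mertk and Itgav relations with the RPE score alone passed. The part of other cells' RNA in the group differences above was not tested beyond the covariate values given.

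**Figure D4:**
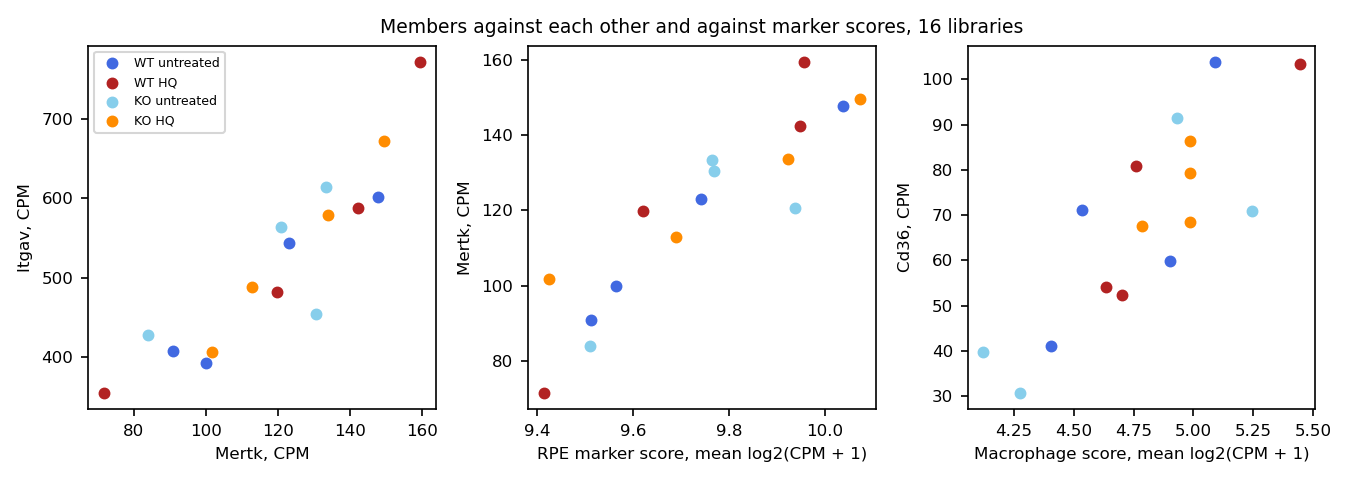
Itgav against Mertk (left), Mertk against the RPE marker score (middle) and Cd36 against the macrophage marker score (right), 1 point per library in colours by group; levels are CPM and scores mean log2(CPM + 1). Mertk and Itgav rise together across all 4 groups.

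**Figure D5:**
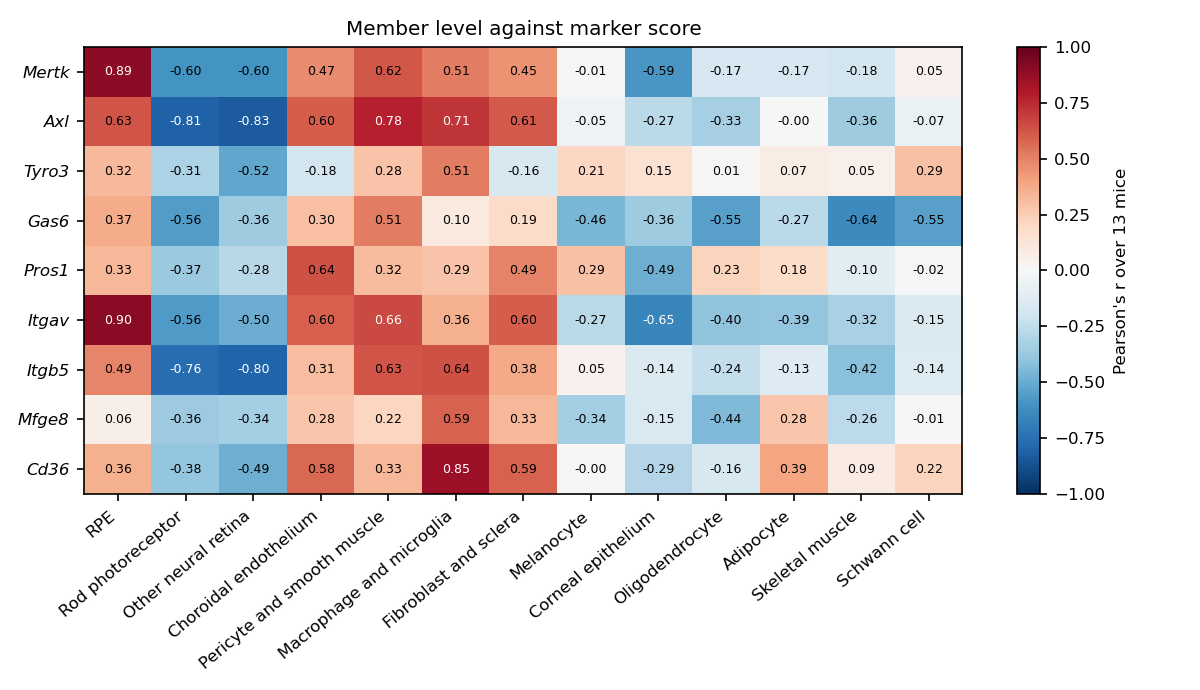
Pearson's r over 13 mice of each gene's level with 13 marker scores (columns), printed in each cell and coloured from -1 (blue) to 1 (red). Mertk and Itgav are highest with the RPE score (0.89 and 0.90) and Cd36 with the macrophage score (0.85).

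The genes most like each member over the 16 libraries, by Pearson's r of log2(CPM + 1), are given as descriptions. For Mertk they were Slc1a1, Tshr and Stard13 (r = 0.97 each). For Itgav they were Sulf1 (0.98), the transporter gene Slco1a4 (0.97) and Itgb8 (0.97). For Cd36 they were Cd93, Lcp1 and Mrc1 (0.91, 0.90 and 0.90), of which Lcp1 is a leukocyte actin-bundling protein and Mrc1 the macrophage mannose receptor. For Axl they were Myo1f, Rasal3 and Fes (0.93, 0.93 and 0.92), and for Mfge8 AB124611, Alox5ap and Blvra (0.86, 0.84 and 0.82). For Gas6 they were Bambi, Tst and Penk (0.89, 0.88 and 0.88), for Itgb5 Hs1bp3, Zdhhc18 and Serhl (0.90, 0.89 and 0.88), for Tyro3 Cpn1, Map2k1 and Taldo1 (0.83, 0.81 and 0.78), and for Pros1 Sparc, Pde7b and 3110053B16Rik (0.81, 0.79 and 0.78).

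Genes that act beside the members did not pass in any contrast either. Of 23 genes of internalization and the cytoskeleton all were tested. Over both genotypes 21 were higher with hydroquinone, against 51.2% of all genes tested (median log2 difference 0.06, against 0.00 over all genes). In wild type alone 16 of the 23 were higher, and in the knockout alone 15. Over both genotypes 0 passed and 2 had an unadjusted edgeR p below 0.05, against 5.72% of all genes tested. These were Ezr, the microvillus protein ezrin (0.26 ± 0.11, estimate ± SE), and Elmo1, a partner of Dock1 in Rac activation (-0.42 ± 0.19). Of 23 other receptors and bridging proteins 21 were tested and 12 were higher. In that list 0 passed and 2 had an unadjusted edgeR p below 0.05. The smallest p-values of that list were those of Megf10, an engulfment receptor, and Edil3, a secreted relative of Mfge8, at -0.85 ± 0.29 and -0.75 ± 0.28.

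In untreated wild type Megf10 measured 6.09 to 23.5 CPM and with hydroquinone 4.00 to 7.06 CPM, and the groups overlapped. In the knockout it measured 12.8 to 14.9 CPM untreated and 5.35 to 19.4 CPM with hydroquinone. Edil3 measured 24.0 to 67.3 CPM and 16.2 to 25.4 CPM in wild type, and 28.4 to 49.2 CPM and 14.4 to 58.5 CPM in the knockout in the same order. The list of phagosome maturation had 25 of 25 genes tested and 19 higher over both genotypes (median 0.08). In it 0 passed and 2 had an unadjusted edgeR p below 0.05, against 5.72% of all genes tested. These were Lamp2, a lysosomal membrane protein, at 0.29 ± 0.13 and the autophagy gene Uvrag at 0.14 ± 0.06. Of 12 genes of TAM shedding and signalling 9 were tested and 8 were higher (median 0.18). In that list 0 passed and 3 had an unadjusted edgeR p below 0.05. Stat3, a transcription factor of cytokine signalling, was at 0.19 ± 0.07. Adam17, which sheds Mertk, was at 0.24 ± 0.12 in wild type with hydroquinone (edgeR adjusted p = 0.994, unadjusted 0.0737).

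Socs3, a feedback inhibitor induced through Stat3, measured 8.42 to 12.7 CPM in untreated knockout and 12.5 to 17.9 CPM in knockout with hydroquinone, which overlapped slightly, a log2 difference of 0.63 ± 0.17 (edgeR adjusted p = 1, unadjusted 0.00244). The knockout-minus-wild-type difference in its treatment response was 0.67 ± 0.24 (edgeR adjusted p = 1, unadjusted 0.0141). In wild type Socs3 measured 12.3 to 15.6 CPM untreated and 9.86 to 14.2 CPM with hydroquinone. The untreated knockout was already lower than untreated wild type, at -0.44 ± 0.17 on the log2 scale (edgeR unadjusted p = 0.0229), which did not pass. For genotype averaged over treatment, 0 genes of the 4 lists passed or had an unadjusted edgeR p below 0.05. Over all genes tested 0% passed and 2.96% had an unadjusted p below 0.05.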

How the data were processed

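The deposited table holds whole-number counts per Ensembl gene; its name announces FPKM, but the values are counts. STAR, Cufflinks, DESeq2 and mm10 are named in the submitters' processing notes, with no role or version; strand, annotation and duplicate handling are not given in the sources used here. Symbols (51633 of 51912 identifiers) and coordinates are from GENCODE vM21 on GRCm38, and promoters from RefSeq. Genes that averaged 1 CPM or more (15380 genes, 99.8% of counts) were tested with edgeR 4.0.16 in R 4.3.3 (quasi-likelihood, TMM, 4 group means), with Benjamini-Hochberg adjustment over them and a threshold of 0.05. DESeq2 1.42.0 and limma 3.58.1 were alternatives. The edgeR fit was tested on simulated data with 2-fold and 4-fold changes, larger than any member difference in the main fit. Its outcome is not reported here, and changes of the members' size were not simulated. Replicates were numbered by accession, so the numbers pair no samples. The eyes of 3 mice entered as separate libraries (correlation of eyes -0.020), so p-values measure the spread between libraries. Whether the identifier letter marks a preparation batch is not stated in the labels. Exact tests over mice used log2(CPM + 1), and correlations 100000 permutations. The members and lists were chosen with earlier results of these data known. All members are named, and of each list at most the 2 genes with the smallest p per contrast; not every gene this rule picks is reported here. Gas6 shares 34 exon bases with Tmem255b and Itgav 634 with Gm13684, each on the opposite strand, so reads there cannot be told apart without strand. Of the 50-base windows of Itgb5 transcripts, 7.255% also occur in Gm38317, which had at most 4 counts in a library. How reads from those windows were assigned is not given in the sources used here.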

Additional observations from a re-analysis of the deposited data

Results flagged for a closer look

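Mfge8 in knockout with hydroquinone had 1 library apart from the other 3: replicate 3 measured 260.5 CPM and the others 218 to 224 CPM. On the log2(CPM + 1) scale the gap made up 0.853 of the group's range, above Dixon's 95% critical value for 4 samples. There were 36 sets of 4 libraries examined (9 genes in 4 groups), and chance flags about 1 in 20, or 1.8 sets. Without this library the log2 difference with hydroquinone in the knockout was 0.44, against 0.52 with it (edgeR).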

How the results depend on the processing

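Each of 36 values (9 members, 4 contrasts) was recomputed under 29 alternatives, 1044 values in all, of which 978 kept their direction and 66 did not; 0 passed the adjusted threshold, and the smallest adjusted p was 0.116 (edgeR). Mfge8 with hydroquinone over both genotypes stayed between 0.31 and 0.58, Gas6 between 0.19 and 0.34, and Pros1 by genotype between 0.16 and 0.42. The rod-rich, few-gene, RPE and macrophage settings were chosen after seeing the data. The causes of the changes below were not tested. With identifiers without a letter only, the following reversed (log2). Hydroquinone in wild type gave Mertk -0.073 and Cd36 -0.059. Hydroquinone in the knockout gave Mertk -0.33, Axl -0.21, Pros1 -0.12, Itgav -0.29, Itgb5 -0.19 and Cd36 -0.11. Averaged, Mertk was -0.20, Axl -0.18, Itgav -0.084, Itgb5 -0.092 and Cd36 -0.085. By genotype Mertk was -0.0335, Axl 0.038, Gas6 -0.018, Itgav -0.094 and Cd36 0.29. With identifiers with a letter only, Axl was 0.17 in wild type, Pros1 0.11 averaged over genotype, and by genotype Mertk -0.036 and Mfge8 -0.10. With the rod score Mertk was -0.015 and Itgav -0.036 in the knockout, and -0.091 and -0.056 by genotype. With the RPE score Itgav was -0.0002 in the knockout, and by genotype Mertk was -0.0055 and Itgav -0.0036. With the macrophage score Cd36 was -0.10 in wild type and Mertk -0.011 in the knockout. Without the rod-rich libraries Axl was 0.061 and Tyro3 0.0095 by genotype. Without the few-gene libraries Itgav was -0.021 in the knockout and Mfge8 -0.0041 by genotype.

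Counts of members at an unadjusted p below 0.05 moved too. For hydroquinone in wild type (1) the count was 2 with median-of-ratios scaling, no filter or DESeq2, and 0 with eyes summed, within either identifier form or without the few-gene libraries. Without a letter it was 0 in the knockout and averaged (2 each). For the knockout untreated (0) it was 1 with a letter and with the rod score. For the knockout under hydroquinone (2) it was 1 with eyes summed, with the form as covariate, within either form and with the rod score. For the interaction (0) it was 1 with limma, with a letter, with the RPE score and without the rod-rich libraries.

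Leaving out 1 library at a time, these counts ranged from 0 to 2 (wild type), 1 to 3 (averaged), 1 to 2 (knockout under hydroquinone), 1 to 2 (genotype averaged) and 0 to 1 (interaction). The averaged count was 1 without knockout hydroquinone replicate 3, and the wild-type count was 0 without wild-type untreated replicate 2 or 3 or wild-type hydroquinone replicate 1. The count for the knockout under hydroquinone was 1 without wild-type hydroquinone replicate 1, 3 or 4 or knockout hydroquinone replicate 2, 3 or 4. The reversing differences ranged as follows. In wild type, Mertk -0.053 to 0.28, Itgav -0.033 to 0.34 and Cd36 -0.14 to 0.34. In the knockout, Mertk -0.0425 to 0.17 and Itgav -0.067 to 0.17. By genotype, Mertk -0.077 to 0.092, Axl -0.086 to 0.035, Tyro3 -0.097 to 0.0088, Itgav -0.056 to 0.13 and Cd36 -0.25 to 0.038. Leaving out 1 mouse, Mertk with hydroquinone ranged from -0.0058 to 0.20, and by genotype Mertk from -0.12 to 0.11, Axl -0.0665 to 0.066, Itgav -0.079 to 0.14, Mfge8 -0.0093 to 0.17 and Cd36 -0.13 to 0.07. The exact p of Pros1 by genotype and Tyro3 with hydroquinone exceeded 0.05 without some mice. With 4 libraries a group, the interval of 2 SE on each side for Mertk with hydroquinone ran from 0.777 to 1.47-fold in wild type and from 0.773 to 1.46-fold in the knockout. No paired analysis between groups was possible because by the titles each mouse was in 1 group only. The 3 mice with both eyes had both in the same untreated group. With the mouse as a block, 0 members passed.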

Other observations

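The eyes of the 3 mice that gave both differed by gene. Gas6 differed between the eyes of a mouse by 1.07 to 1.10-fold, Itgb5 by 1.02 to 1.15-fold and Pros1 by 1.00 to 1.22-fold. Cd36 differed by 1.74 to 2.30-fold and Mertk by 1.08 to 1.63-fold. In each of these mice 1 eye had an identifier with a letter and 1 without. In untreated knockout replicates 1 and 3, which are eyes of the same mouse, Cd36 measured 70.9 and 30.8 CPM while Gas6 measured 374 and 409 CPM.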
